A study of Mus musculus with 8 samples.

Results

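Zic genes encode zinc finger transcription factors related to the Gli proteins of the Hedgehog pathway. They are read in the dorsal midline of the developing brain, in the septum and cortical hem at the medial edge of the telencephalon, in the meninges and in the cerebellum. The septum and the hem are also sources of Cajal-Retzius (CR) neurons, the Reelin-secreting cells of cortical layer 1, so Zic transcripts are often looked at when the birthplace of a CR neuron is asked about.

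The 4 Zic genes described here, Zic1, Zic2, Zic4 and Zic5, are given whatever their level, of 27998 genes in the matrix. The cells were Ebf2-EGFP+ cells sorted by FACS from the E15.5 cerebral cortex of Tg(Ebf2-EGFP)FB58Gsat mice, a transgenic strain in which EGFP is driven by Ebf2 sequences. The study describes Ebf2-EGFP+ cells of this age as mostly CR neurons, with staining of RELN protein as part of its evidence. Here 16.1% of the kept barcodes passed the Reln transcript limit given below, which is another measure and not a share of RELN-positive cells. Of the barcodes below that limit, 65.15% still held some Reln transcript. The labels list 8 samples of this 1 group, with no other genotype or treatment and with the cells of several embryos pooled. All barcodes stand in 1 matrix that does not say which sample each came from, so no test between samples was possible. The 95% intervals given throughout cover counting error alone and leave out the spread between embryos, since barcodes are not replicates.

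The matrix held 3000 barcodes with 10718 to 76690 UMIs (unique molecular identifiers, 1 per transcript caught). After removal of 69 barcodes with high doublet scores, 472 of 2931 barcodes (16.1%) had at least 5 Reln UMIs per 10000 and are called Reln-high. The choice used Reln and no Zic gene. Beside Reln itself, the other 5 CR markers were at least 2-fold higher in Reln-high barcodes, for example Trp73, a p53 relative kept in hem-derived CR neurons, at 140.6 against 5.61 CPM (UMIs per 1000000 summed UMIs), and 394 of the 472 fell in a cluster made without the Zic genes and called CR-like. Reln-high barcodes were deeper, with a median of 21541.5 against 15267 UMIs. Barcodes with both Xist and Y-linked UMIs, a sign of 2 cells under 1 barcode, made up 12.9% of the Reln-high and 2.93% of the other barcodes, and their part in the results was not tested beyond leaving them out.

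In the mouse genome these genes lie in 2 divergent pairs. In the GENCODE annotation of GRCm38, Zic1 lies at chr9:91358058-91365810 on the minus strand and Zic4 at chr9:91362413-91389348 on the plus strand, and their annotated bounds overlap by 3398 bases. Only 60 of the 5693 exonic bases of Zic1 are also exonic in Zic4. Whether the counting used strand is not given in the sources used here, so UMIs from those 60 bases could not be told apart. Zic5 lies at chr14:122456795-122465677 on the minus strand and Zic2 at chr14:122475435-122479852 on the plus strand, 9757 bases apart and sharing no exonic base. The coding parts resemble one another, but the longest run of identical bases between transcripts of any pair was 42 bases, between Zic1 and Zic4.

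Promoters, from 250 bases before to 50 after the gene start, are shown for Zic1, Zic4 and Zic5 (RefSeq, GRCm38.p6). The promoter set used here had no entry for Zic2. Zic1 and Zic4 share a locus, and Zic5 belongs to the other one. Zic1 is at chr9:91365719-91366018 (minus strand), Zic4 at chr9:91368722-91369021 (plus strand) and Zic5 at chr14:122465609-122465908 (minus strand). Capitals mark CCAAT and GGGCGG, the CCAAT and GC boxes of many promoters, on either strand and with no overlap between matches. The RefSeq starts of Zic1 and Zic5 lie 42 and 19 bases inside the GENCODE bounds given above. That of Zic4 lies 6559 bases inside, in a gene whose GENCODE transcripts begin at several places, so its window shows 1 start among several.
Zic1: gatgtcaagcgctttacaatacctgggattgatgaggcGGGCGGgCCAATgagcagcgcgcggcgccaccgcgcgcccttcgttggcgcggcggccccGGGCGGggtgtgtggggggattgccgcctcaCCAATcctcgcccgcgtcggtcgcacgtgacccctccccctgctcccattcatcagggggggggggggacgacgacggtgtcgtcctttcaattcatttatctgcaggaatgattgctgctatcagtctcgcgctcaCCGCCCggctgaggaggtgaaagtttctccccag
Zic4: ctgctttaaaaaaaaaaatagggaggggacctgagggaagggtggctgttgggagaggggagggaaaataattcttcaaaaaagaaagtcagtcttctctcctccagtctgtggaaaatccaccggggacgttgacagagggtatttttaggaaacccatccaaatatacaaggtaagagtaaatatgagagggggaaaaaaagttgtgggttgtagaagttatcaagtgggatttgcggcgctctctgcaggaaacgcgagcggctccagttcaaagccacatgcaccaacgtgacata
Zic5: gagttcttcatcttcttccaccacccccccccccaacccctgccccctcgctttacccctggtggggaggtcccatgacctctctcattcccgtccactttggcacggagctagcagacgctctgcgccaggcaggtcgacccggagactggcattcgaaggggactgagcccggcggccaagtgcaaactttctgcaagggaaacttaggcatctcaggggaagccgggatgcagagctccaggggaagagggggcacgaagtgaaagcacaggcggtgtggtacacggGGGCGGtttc
The Zic1 promoter held 2 CCAAT and 3 GGGCGG matches, the Zic5 promoter 1 GGGCGG match and the Zic4 promoter neither. Over 32851 promoters of the same length, 37.4% held CCAAT and 35.7% GGGCGG. No match to TATAAA or to CAGCAGG, the core of the sequence that ZIC proteins bind, was found in the 3 windows, and 13.6% and 10.5% of all promoters held these. GC content was 65.3% for Zic1, 62.7% for Zic5 and 46.0% for Zic4, against a median of 52.7%, and the Zic1 window held 31 CpG against a median of 7.

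The first comparison asked where among the sorted cells the family was transcribed. All 4 members were higher in Reln-high barcodes, and Zic2 and Zic5, the divergent pair of chromosome 14, stood out most. Zic1 had 1360 UMIs in the 472 Reln-high barcodes and 622 in the 2459 others, and Zic5 had 536 and 40. Among all 11288 genes with enough UMIs to compare, 7.38% were at least 2-fold higher in Reln-high barcodes and 5.54% at least 2-fold lower, and the median log2 ratio was 0.11. All 4 Zic genes were past 2-fold higher. However, Zic2, Zic4 and Zic5, with 40, 96 and 40 UMIs in the other barcodes, reached the 100 UMIs needed to compare only through the Reln-high set. Their ranks below and the shares beside them rest on that limit and are a description only.

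Zic5, which acts in neural crest formation and neural tube closure, was at 44.2 CPM (40.6 to 48.1) in Reln-high barcodes and 0.942 CPM (0.673 to 1.28) in the rest. The log2 ratio of Zic5 was 5.55 (5.09 to 6.05), rank 4 of 11288 genes. Zic2, whose human counterpart is mutated in holoprosencephaly, was at 43.7 CPM (40.1 to 47.6) against 0.942 CPM (0.673 to 1.28). Its log2 ratio of 5.54 (5.07 to 6.04) was at rank 5, and the intervals of Zic2 and Zic5 overlapped over nearly their whole width. Of the UMIs of Zic2, 93.0% lay in Reln-high barcodes, and of those of Zic5, 93.1%.

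The members of the chromosome 9 pair had smaller ratios, and more of their UMIs lay outside Reln-high barcodes. Zic4, which is deleted together with Zic1 in some cases of Dandy-Walker malformation, was at 26.0 CPM (23.2 to 29.0) against 2.26 CPM (1.83 to 2.76), a log2 ratio of 3.52 (3.19 to 3.87). Zic1, which acts in medial forebrain and cerebellar development, was at 112.2 CPM (106.3 to 118.3) against 14.7 CPM (13.5 to 15.9), a log2 ratio of 2.94 (2.80 to 3.08). The ranks of Zic4 and Zic1 were 100 and 153. The interval of Zic1 lay below that of Zic4, and both lay below those of Zic2 and Zic5. Levels are not compared between genes here, because capture can differ from transcript to transcript.

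Detection in single barcodes was also higher in the Reln-high set for every member. For this each barcode was thinned at random to 1 equal depth, set just below the 10718 UMIs of the shallowest barcode so that none was left out. Zic1 was detected in 57.4% of Reln-high barcodes (full depth 79.0%) and in 8.30% of the others (11.1%). Zic5 was detected in 37.5% (60.6%) against 0.935% (1.55%), and Zic2 in 36.02% (59.1%) against 0.854% (1.34%). Zic4 was detected in 20.3% (31.4%) against 1.38% (2.07%). A median Reln-high barcode held 2 UMIs of Zic1, 1 each of Zic2 and Zic5 and 0 of Zic4, and the highest counts in 1 barcode were 22, 9, 6 and 12 UMIs for Zic1, Zic2, Zic5 and Zic4.

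**Figure D1:**
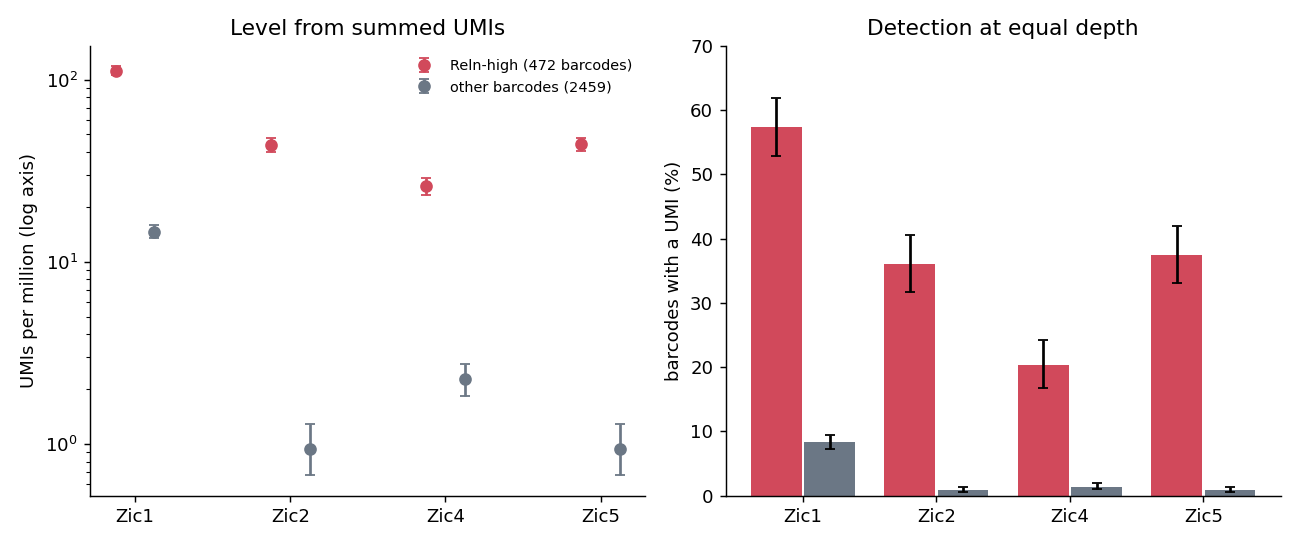
Left, CPM of each Zic gene on a log axis in 472 Reln-high and 2459 other barcodes, with exact Poisson 95% intervals. Right, percent of barcodes with a UMI after thinning to equal depth, with exact Clopper-Pearson 95% intervals. On the left the points of the 2 sets are farthest apart for Zic2 and Zic5, and Zic1 has the highest level in the other barcodes, 14.7 CPM.

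Whether Zic UMIs in clusters low in the family came from free RNA, mixed barcodes or the cells themselves was not tested. Zic1 and Zic2 were lowest in the deep-layer projection neuron-like cluster, with 6 Reln-high barcodes among its 698. There Zic1 was at 3.80 CPM (2.72 to 5.18) with a thinned detection of 4.01%, and Zic2 was at 0.380 CPM (0.104 to 0.973) with 0.287%. The median depths were 13578 UMIs in that cluster and 20930.5 in the CR-like cluster. The ratio of Zic1 to Zic2 UMIs was 2.57 (2.32 to 2.84) in Reln-high and 15.55 (11.3 to 22.0) in the other barcodes. The ratio of Zic1 to Zic4 UMIs differed less, at 4.32 (3.82 to 4.90) against 6.48 (5.22 to 8.12). Of the Zic1 UMIs of the other barcodes, 59.6% came from 58 barcodes, described further on, and their part in these ratios was not tested.

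Zic levels were next followed over steps of Reln. From 0 to 2 Reln UMIs per 10000, over 3 steps, Zic1 lay between 12.2 and 14.7 CPM and Zic2 between 0.641 and 0.941 CPM, with overlapping intervals. In the 146 barcodes with 2 to 5 Reln UMIs per 10000, just below the limit, Zic1 was at 37.2 CPM (30.1 to 45.5), Zic4 at 8.71 CPM (5.46 to 13.2) and Zic2 at 3.96 CPM (1.90 to 7.28). In the 55 barcodes just above it, with 5 to 10, Zic1 was at 97.4 CPM (82.3 to 114.4), Zic4 at 25.7 CPM (18.3 to 35.1) and Zic2 at 29.0 CPM (21.0 to 38.9). Further up, Zic1 was at 93.5 CPM (85.3 to 102.2) for 10 to 20 and 134.6 CPM (125.0 to 144.7) for 20 to 40 Reln UMIs per 10000. Zic5 was at 25.7, 41.0 and 52.2 CPM over the 3 upper steps, with the first interval (18.3 to 35.1) below the later ones. Only 1 barcode exceeded 40 Reln UMIs per 10000.

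**Figure D2:**
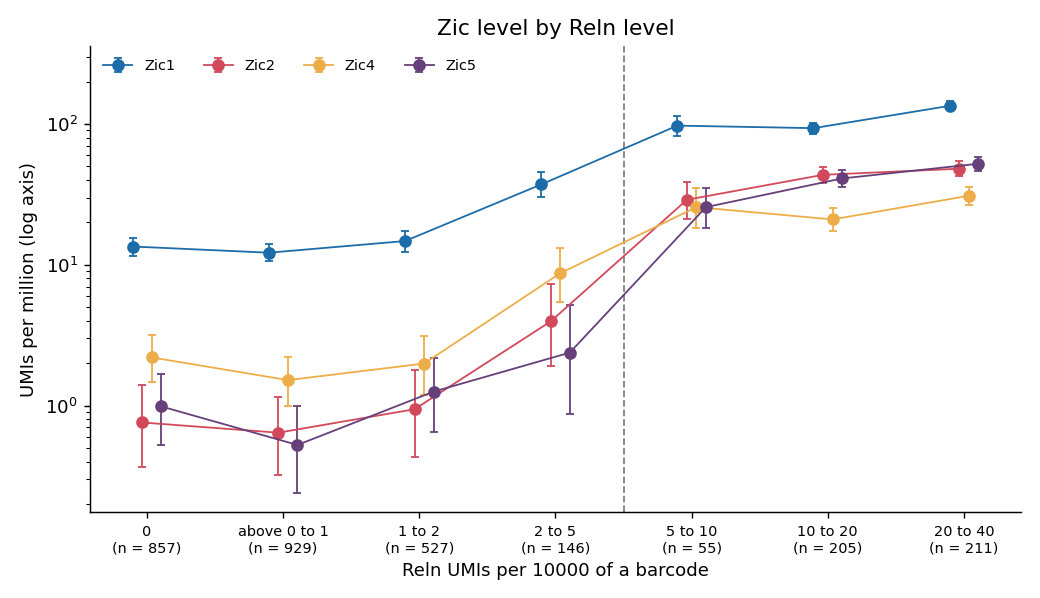
CPM of each Zic gene on a log axis, with exact Poisson 95% intervals, over 7 steps of Reln UMIs per 10000, with the number of barcodes under each step. The dashed line is the limit of 5 that defines Reln-high barcodes; Zic2 is at 3.96 CPM in the step left of it and at 29.0 CPM in the step right of it.

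Across 8 clusters made without the Zic genes, each member had its highest level in the CR-like cluster of 400 barcodes. Zic1 was at 121.3 CPM (114.6 to 128.3) there, Zic2 at 50.01 (45.7 to 54.6), Zic4 at 27.2 (24.1 to 30.7) and Zic5 at 51.0 (46.7 to 55.7). A second level of Zic1 lay in 2 clusters that carry no cell type name. In the 177 barcodes led by Snhg11, a neuronal noncoding RNA, Zic1 was at 69.0 CPM (60.4 to 78.4), and in the 240 led by Neurod1, a transcription factor of young neurons, it was at 41.6 CPM (36.8 to 46.8). Zic4 followed, at 12.3 CPM (8.85 to 16.6) and 8.74 CPM (6.64 to 11.3). Zic2 and Zic5 stayed low there, at 6.43 CPM (4.03 to 9.73) and 3.80 CPM (2.02 to 6.50) in the Snhg11-led cluster. These clusters held 32 and 22 Reln-high barcodes.

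Below these, Zic1 was at 13.9 CPM in the upper-layer projection neuron-like cluster, 8.50 CPM (6.97 to 10.3) in the Fezf2-led cluster, 5.44 CPM (3.67 to 7.77) in the subplate neuron-like cluster and 3.80 CPM in the deep-layer one. Neighbours in this order did not overlap in their intervals down to the Fezf2-led cluster, and the intervals of the Fezf2-led and subplate neuron-like clusters and of the subplate neuron-like and deep-layer ones overlapped. The 18 radial glia-like barcodes gave 23.7 CPM (9.55 to 48.9), an interval that overlapped those of the Neurod1-led, upper-layer and Fezf2-led clusters. The Zic2 and Zic5 levels in the upper-layer, deep-layer, subplate and Fezf2-led clusters lay between 0.380 and 1.45 CPM.

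**Figure D3:**
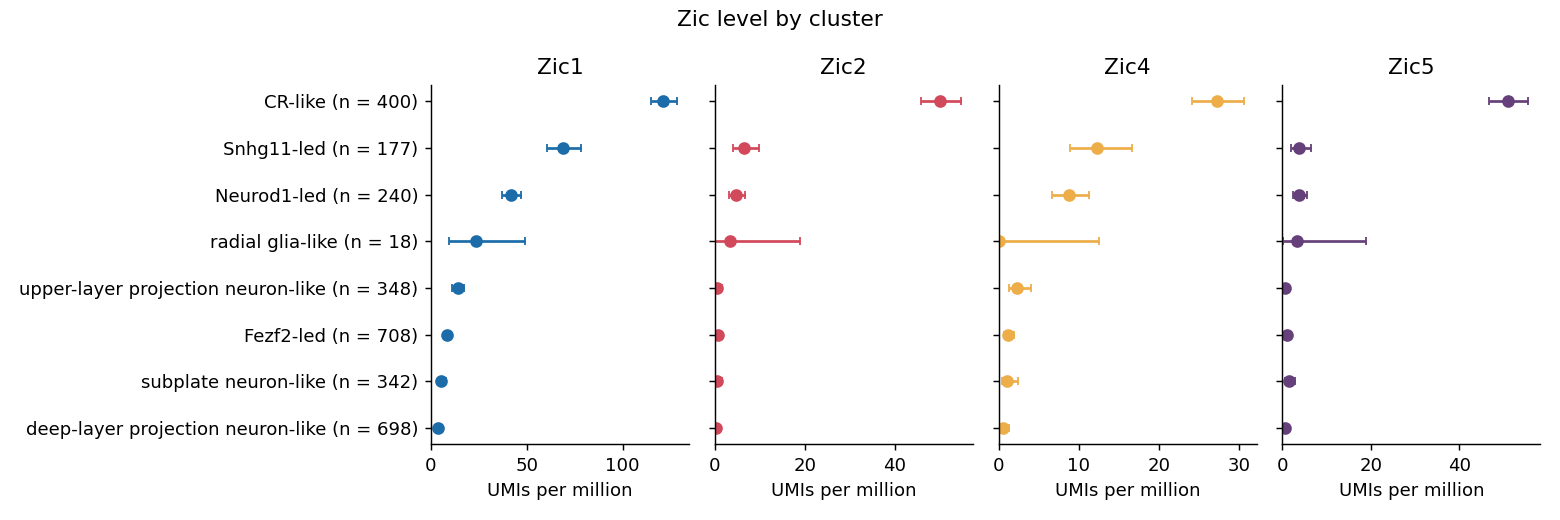
CPM (linear axes from 0, scaled per gene) of each Zic gene in 8 K-means clusters, with exact Poisson 95% intervals and the number of barcodes beside each name. All 4 genes are highest in the CR-like cluster, and Zic1 is also at 69.0 CPM in the Snhg11-led and 41.6 CPM in the Neurod1-led cluster.

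Outside Reln-high barcodes, Zic1 was concentrated in few barcodes. A set of 58 barcodes with at least 3 Zic1 UMIs, a limit chosen after the data were seen, was 2.36% of the rest and held 59.6% of its Zic1 UMIs, with up to 20 in 1 barcode. Of the 58, 24 lay in the Neurod1-led and 17 in the Snhg11-led cluster, and 2 in the CR-like cluster. Zic4 had a UMI in 41.4% of them (28.6 to 55.1%), against 51.9% (44.9 to 58.8%) of the 210 Reln-high barcodes with as many Zic1 UMIs. Zic2 had one in 10.3% (3.89 to 21.2%) against 66.2% (59.4 to 72.6%), and Zic5 in 5.17% (1.08 to 14.4%) against 66.2%. Zic1 was present by the choice itself, and Zic4 was not detected in most of the 58. The intervals of Zic4 overlapped between the 2 sets, and those of Zic2 and Zic5 did not. The median depth of the 58, 16717.5 UMIs, was below the 23521.5 UMIs of the 210. A lower depth can lower the detection of every member, and its part was not tested. These shares are at full depth.

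CR markers and other genes were then read in the 58 barcodes, whose Reln is low by the choice itself. Trp73 was at 7.92 CPM (3.62 to 15.04) in them, 5.12 CPM (4.42 to 5.90) in the other barcodes with no Zic1 UMI that were not Reln-high, and 146.2 CPM in the 210 Reln-high barcodes. Nhlh2, a helix-loop-helix factor, was at 72.2 CPM (57.4 to 89.6), against 40.4 and 932.4 CPM. Lhx5, a LIM homeobox factor of CR neurons, lay between the sets, at 46.7 CPM (34.9 to 61.03) against 7.71 CPM (6.84 to 8.65) and 200.6 CPM (189.3 to 212.4). Ndnf and Ebf3 were both at 9.68 CPM (4.83 to 17.3), against 188.9 and 78.8 CPM in the 210 Reln-high barcodes. All 5 markers were thus lower in the 58 than in these 210.

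Calb2, the calcium-binding protein calretinin, was near the Reln-high level, at 502.7 CPM (462.3 to 545.7) against 570.7 CPM (551.5 to 590.3), and at 83.5 CPM (80.6 to 86.5) in barcodes with no Zic1 UMI. Tcf7l2, a Wnt effector abundant in thalamic neurons, was at 314.3 CPM (282.5 to 348.7), against 18.2 CPM (16.9 to 19.7) without Zic1 and 11.2 CPM in the Reln-high set. Fst, which encodes the activin antagonist follistatin and was picked after its values were seen, was at 184.9 CPM (160.7 to 211.7) against 5.55 CPM (4.82 to 6.36) without Zic1. The values of the 58 pool barcodes from unlike clusters. Over the whole Snhg11-led and Neurod1-led clusters, Tcf7l2 was at 335.2 and 0.904 CPM, Lhx5 at 88.8 and 18.7 CPM and Calb2 at 288.1 and 459.6 CPM. Whether these genes were high in the same barcodes of the 58 was not tested, and no cell type was given to these barcodes.

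Reln-high barcodes themselves differed in Zic content. The 78 that lay outside the CR-like cluster had Zic2 at 16.8 CPM (11.9 to 23.1) and Zic5 at 14.6 CPM (10.1 to 20.5), against 49.9 CPM (45.6 to 54.5) and 51.0 CPM (46.6 to 55.6) in the 394 within it. Zic1 was at 74.9 CPM (64.0 to 87.1) against 120.7 CPM (113.9 to 127.8). Reln was also lower outside, at 1013 against 2104 CPM, and 23.1% against 10.9% of barcodes carried both Xist and Y-linked UMIs. The median depths were 25829 and 21076 UMIs. Depth moved with the level too. The 285 Reln-high barcodes of up to 25000 UMIs had Zic1 at 144.7 CPM (134.3 to 155.8) and Zic2 at 57.2 CPM (50.7 to 64.3), and the 187 deeper ones had 90.1 CPM (83.3 to 97.3) and 34.6 CPM (30.5 to 39.2). Both Xist and Y-linked UMIs were found in 1.75% of the shallower and 29.9% of the deeper barcodes, a call that itself depends on depth. Whether mixed barcodes account for this was not tested.

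The next question was whether the members fall in the same single cells. At equal depth, 19.1% (15.6 to 22.9%) of Reln-high barcodes had a UMI of none of the 4 genes, 33.1% had 1 member, 28.8% had 2 and 19.1% had 3 or more. In the other barcodes 89.8% (88.5 to 90.9%) had none and 0.0813% (0.00985 to 0.293%) had 3 or more. At full depth 7.20% of Reln-high barcodes, or 34, had a UMI of none of them. Of these 34, 38.2% (22.2 to 56.4%) lay in the CR-like cluster, against 87.0% (83.5 to 90.0%) of the 438 others. Their median depth was 13930 against 21967 UMIs. Trp73 was at 143.1 CPM (114.3 to 176.9) in them and 140.5 CPM (133.7 to 147.5) in the 438. Lhx5 was at 161.6 CPM (130.9 to 197.3) against 197.4 CPM (189.4 to 205.7), and Ebf3 at 101.0 against 79.7 CPM, all with overlapping intervals. The other CR markers were lower in the 34, with Nhlh2 at 538.6 CPM (481.2 to 601.0) against 915.3 CPM (897.9 to 932.9) and Ndnf, a secreted neurotrophic factor, at 80.8 CPM (59.6 to 107.1) against 174.3 CPM (166.8 to 182.1).

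Thinning is random, so differences between single barcodes are given for 1 draw and then over 100 further draws, which were added after the data were seen. Among the 6 pairs of members, Zic1 with Zic4 had the largest difference. Of Reln-high barcodes with a Zic1 UMI, 29.9% (24.5 to 35.7%) also had Zic4, against 7.46% of those without, a difference of 22.4 points (15.6 to 28.8). Read the other way, 84.4% (75.5 to 91.0%) of barcodes with Zic4 had Zic1, against 50.5% (45.4 to 55.7%) of those without. Over the 100 draws the difference for Zic4 by Zic1 ran from 13.7 to 26.2 points, its interval lay above 0 in all 100, and it was the largest of the 6 in 97. In the Reln-high barcodes of the CR-like cluster alone it was 20.3 points (12.5 to 27.3). More barcodes held both Zic1 and Zic2, or both Zic1 and Zic5, at 111 each, than both Zic1 and Zic4, at 81, and Zic4 was detected less often.

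For Zic2 and Zic5, the divergent pair of chromosome 14, the difference depended on the draw. Zic5 had a UMI in 39.4% (32.0 to 47.2%) of barcodes with Zic2 and in 36.4% (31.0 to 42.1%) of those without, a difference of 2.99 points (-5.98 to 12.1), which is near the low end of the 100 draws. Over these it ran from 1.99 to 16.4 points with a median of 9.59, and its interval lay above 0 in 55. At full depth the difference was 10.5 points (1.5 to 19.3). The interval of Zic4 by Zic1 lay wholly above that of Zic5 by Zic2 in 10 of the 100 draws, so the 2 gene pairs were not set apart by this measure.

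Of the 6 pairs, 3 had an interval above 0 in the first draw and 0 below, and over all genes paired with any member 4.29% of intervals lay above 0 and 3.46% below. The count ran from 1 to 6 over the 100 draws. Zic5 by Zic1 had a median of 11.5 points and lay above 0 in 73 draws, and Zic2 by Zic1 had a median of 9.40 points and lay above 0 in 55. Zic4 by Zic2 lay above 0 in 14 and Zic5 by Zic4 in 11, with medians of 4.24 and 4.70 points. In the CR-like cluster alone, in the first draw, 2 of the 6 stayed above 0, both with Zic4.

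**Figure D4:**
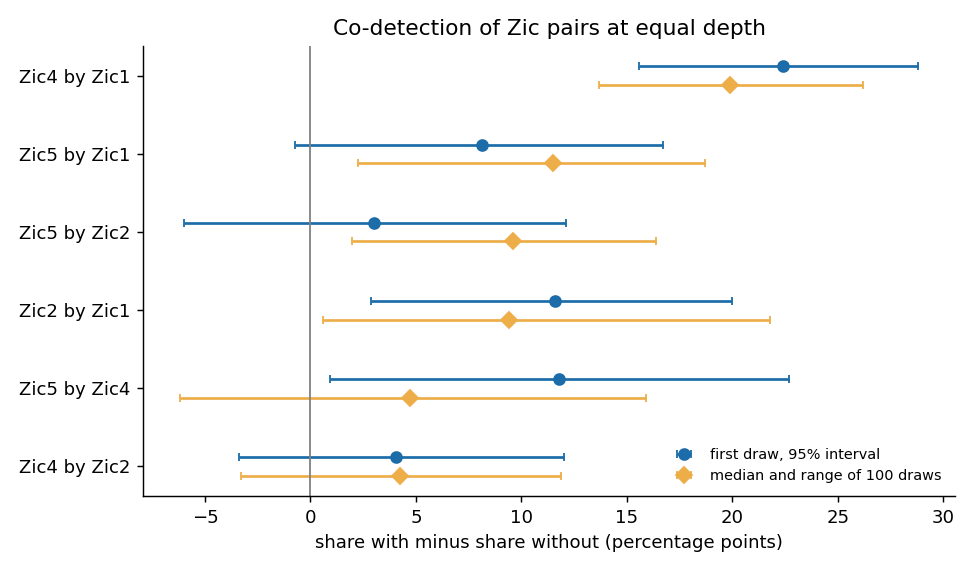
Difference in percentage points between the share of barcodes with the first named gene among those with and without the second, in 472 Reln-high barcodes thinned to equal depth. Circles are the first draw with Newcombe 95% intervals, and diamonds are the median of 100 further draws with a line from the lowest to the highest; Zic4 by Zic1 has the highest median, at 19.9 points, and Zic5 by Zic2 runs from 1.99 to 16.4 points.

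Levels at full depth need no draw, but those of Zic1 and Zic2 differed with depth, as given above. The part of depth and of mixed barcodes in the correlations was not tested. Over the 472 Reln-high barcodes, the Pearson correlation of log2(1 + UMIs per 10000) was 0.488 for Zic1 with Zic4 and between 0.0696 and 0.174 for the other pairs, given as a description over barcodes of 1 library. Zic4 was the gene most like Zic1 among 8574 genes, followed by Ebf1 (0.405), a transcription factor of the family that Ebf2 belongs to, Calb2 (0.363), Tpbg (0.356) and Nnat (0.349). Zic1 was the gene most like Zic4, and Ebf1 came second (0.314). Zic2 was most like Nhlh2 (0.299), Lhx1 (0.296) and Dmrta2 (0.263). Zic5 was most like Atp6v0e (0.357), Nhlh2 (0.352), Rspo3 (0.321) and Dmrta2 (0.316). Over all 2931 barcodes Nhlh2, Reln, Cacna2d2 and Dmrta2 stood among the 5 genes most like each member.

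Genes tied to the sources of CR neurons were then set beside the family. Of 11 cortical hem genes, 7 had the 100 UMIs over both sets needed to compare, and Lmx1a, Rspo1 and Bmp7, with 107, 124 and 103 UMIs in Reln-high and 19, 41 and 31 in the other barcodes, had them only through the Reln-high set. The other 4 were Cxcr4, at 95.3 against 7.18 CPM, Rspo2, at 17.5 against 3.60 CPM, Wnt5a, at 20.6 against 6.08 CPM, and Rspo3, at 139.6 against 96.1 CPM. Of 9 septum genes, 5 could be compared, 1 at least 2-fold higher and 2 at least 2-fold lower. These counts rest on that limit, so nothing is read from their shares. Fgf8, the ligand that marks the septal source, had no UMI in any kept barcode. Of 5 ventral pallium genes, 3 could be compared, 1 higher and 2 lower, and Dbx1, which marks that source, had no UMI either. Of the 5 thalamic eminence genes 4 were at least 2-fold higher, beside 7.38% of all genes, and nothing is read from so short a list. Lhx1, with 84 UMIs in the other barcodes, could be compared only through the Reln-high set. Calb2 and Lhx9 were also at 459.6 and 66.45 CPM in the Neurod1-led cluster, while Barhl2 was at 7.44 CPM in the other barcodes. Ligands and patterning genes of a source are mostly read in its progenitors, so their absence from sorted neurons says little about where a neuron was born.

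In single Reln-high barcodes, 17 of these genes were common enough to pair with each Zic gene. Of the 68 pairs, 21 had an interval above 0 in the first draw and 1 below, beside 4.29% and 3.46% over all genes, and over the 100 draws the count above 0 ran from 14 to 28 with a median of 21. Zic1 gave 11 of the 21, at the high end of its range of 5 to 12 (median 7.5). Zic5 gave 5 (2 to 11, median 6), Zic4 3 (0 to 7, median 3) and Zic2 2 (1 to 8, median 4). For Zic1 alone, 5.79% of all 9101 genes had an interval above 0, and 22.7% of the 772 genes at least 2-fold higher in Reln-high barcodes, which is the fairer background since the listed genes are mostly of that kind. The same share of the 772 genes was 15.3% for Zic5 and 9.33% for both Zic2 and Zic4. The 2 of 17 genes for Zic2 were near this background in the first draw only, since the median over the 100 draws was 4. The background itself was not taken over the 100 draws. In the CR-like cluster alone, in the first draw and over 16 genes, 14 pairs lay above 0, 8 of them with Zic1. Cxcr4, Emx2, Lhx1 and Lhx5 were named by the study on these same cells, so they are not independent evidence.

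Among hem genes, Cxcr4, the chemokine receptor that holds CR neurons under the meninges, went with Zic1 most steadily. It was detected in 67.9% of barcodes with Zic1 and 43.3% of those without, a difference of 24.6 points (15.6 to 33.1), and over the 100 draws the difference ran from 8.45 to 28.0 points with an interval above 0 in 99. It was 20.5 points (10.6 to 30.0) in the CR-like cluster. Bmp7, a BMP ligand, differed by 8.07 points (2.94 to 13.0) and lay above 0 in 91 draws, and Rspo2, which enhances Wnt signalling, by 11.7 points (4.95 to 18.1) and in 88. Its relative Rspo3 lay above 0 in 67 draws and Lmx1a, a hem transcription factor, in 65. Wnt5a, a Wnt ligand of the hem, differed by 15.7 points (8.52 to 22.5) in the first draw but by a median of 6.92 points over the 100, with an interval above 0 in 40. Rspo1 lay above 0 in 0 draws and below in 6.

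Zic1 also went with Calb2, which stands on the thalamic eminence list, at 16.2 points (8.55 to 23.9) and above 0 in all 100 draws, and with Emx2, a homeobox factor of the dorsal telencephalon, in 85. Barhl2, a homeobox gene of the same list as Calb2, lay above 0 in 58. Spry1, an FGF feedback inhibitor on the septum list, gave 9.88 points (2.04 to 17.3) in the first draw but lay above 0 in 2 of the 100, and Spry2 in 5.

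Zic2 went with Lhx1, a LIM homeobox factor, which was detected in 59.4% of barcodes with Zic2 and 44.7% of those without, a difference of 14.7 points (5.32 to 23.7) with an interval above 0 in 94 draws. Cxcr4 gave 7.72 points (-1.58 to 16.7) with Zic2 in the first draw, but a median of 15.4 points over the 100, with an interval above 0 in 93. In the CR-like cluster, in the first draw, it gave 1.36 points (-8.27 to 10.7). Wnt5a by Zic2, above 0 in the first draw, was so in 5 of the 100.

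Zic5 went with Rspo3 at 15.1 points (5.91 to 23.9), above 0 in 98 draws, and with Cxcr4 at 15.7 points (6.54 to 24.3), above 0 in 89. The difference for Cxcr4 by Zic5 was 7.70 points (-1.83 to 16.8) in the CR-like cluster. Zic4 went with Bmp7 at 8.18 points (1.49 to 17.0), above 0 in 84 draws, and with Calb2, above 0 in 85 with a median of 12.4 points. Rspo3 by Zic4 lay above 0 in 32, and Spry1 by Zic4, below 0 in the first draw, was so in 0 of the 100.

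**Figure D5:**
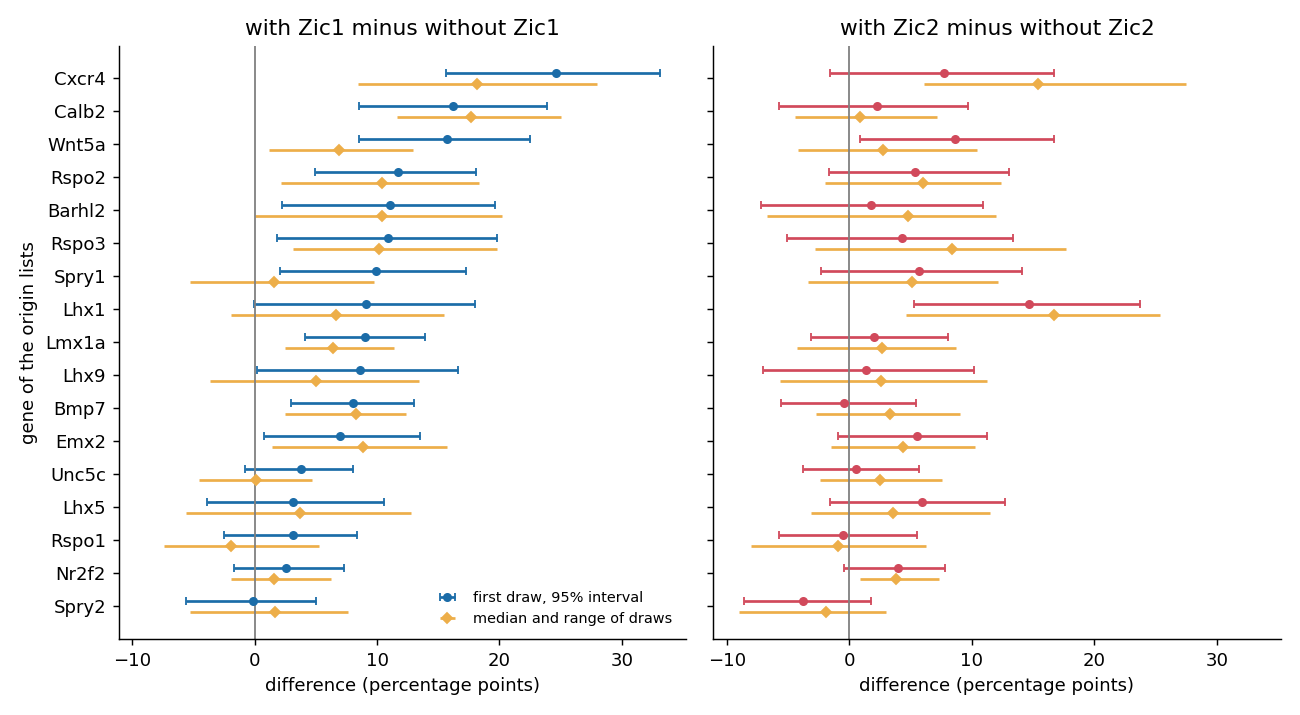
Difference in percentage points in the detection of 17 origin genes between Reln-high barcodes with and without Zic1 (left) and Zic2 (right), thinned to equal depth. Circles are the first draw with Newcombe 95% intervals, and diamonds are the median of 100 further draws with a line from the lowest to the highest; for Zic1 the medians of Cxcr4 and Calb2 are highest, at 18.2 and 17.7 points, and for Zic2 those of Lhx1 and Cxcr4, at 16.7 and 15.4 points.

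Relatives and reported partners of the Zic proteins were read in the same way. Among the Gli and Glis relatives, which bind similar DNA, only Glis2 had enough UMIs to compare, at 5.86 against 5.37 CPM (log2 ratio 0.12, -0.28 to 0.52), and Gli1 had no UMI in any kept barcode. Of 10 Hedgehog pathway genes 5 could be compared, with 0 at least 2-fold higher or lower and a median log2 ratio of 0.16, and Ptch1, the Hedgehog receptor, was at 4.12 against 5.04 CPM. Of 11 genes reported as ZIC targets or partners, 4 could be compared, 0 were at least 2-fold higher and 2 lower. Over all 11288 genes compared, 7.38% were at least 2-fold higher and 5.54% lower, and both lists are too short to set against that. The 2 lower genes were Drd1 and Ephb1. Drd1 had 11 UMIs in Reln-high and 98 in the other barcodes, so it could be compared mostly through the others. Ephb1, a guidance receptor that Zic2 induces in retinal axons, was at 29.0 CPM in Reln-high and 75.1 CPM in the other barcodes (log2 ratio -1.37, -1.53 to -1.21).

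Other Zic-expressing tissues at the brain surface were looked for in the same barcodes. Meningeal fibroblasts express several Zic genes, but their 9 markers summed to 4.04 CPM in Reln-high and 1.39 CPM in the other barcodes, none could be compared, and Col3a1 and Foxd1 had no UMI. Col1a1 made up most of the sum, at 3.38 CPM. The 5 choroid plexus markers summed to 1.32 and 0.353 CPM, with Ttr, the most abundant choroid plexus transcript, at 0 UMIs in Reln-high barcodes, which allows up to 3 UMIs of 12124239. The 6 GABAergic markers summed to 3.30 and 5.89 CPM.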

How the data were processed

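Raw UMI counts per gene and barcode were deposited as 1 matrix, which the authors made with Cell Ranger 2.0.0 and analysed with Seurat 2.0, per the submitters' processing notes. The mm10 build is named there. Their cell annotation was not used. The members, lists and alternatives were chosen with earlier results of these data known. All 3000 barcodes passed a filter of 1000 genes and 10% mitochondrial UMIs. As likely doublets, 69 barcodes (2.3%) that ranked highest by Scrublet were taken out, 33 of them Reln-high. The automatic Scrublet threshold called 2 barcodes (0.0667%) and was not used. Clusters came from K-means (8 clusters, 50 starts) on 20 principal components of 2000 variable genes without the Zic genes (scanpy 1.11.5, scikit-learn 1.9.0). A name needed 3 markers at least 2-fold up. The Snhg11-led cluster had 4 of 6 GABAergic markers up (Dlx2, Dlx5, Gad1 and Gad2), with Gad1 at 7.3 CPM. The Neurod1-led cluster had 3 of 6 thalamic neuron markers up (Lhx9, Lef1 and Prox1). Both stayed unnamed because their leading genes went against the name.

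Levels were CPM. Intervals were exact Poisson for levels, conditional binomial for ratios, Clopper-Pearson for shares and Newcombe for differences of shares (scipy 1.17.1), over genes with at least 100 UMIs. Co-detection used genes found in 5 to 95% of thinned Reln-high barcodes. Named genes were the members, the listed genes, the 5 genes most like each member and genes within 100 kb. On counts simulated for ratios between barcode sets, all 200 changed genes of 11356 were recovered and 95.4% of intervals held the true ratio. This checks the calculation under counting error alone. It does not test the depth gap, mixed barcodes or spread between barcodes of the real comparison. Some items are not reported here.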

Additional observations from a re-analysis of the deposited data

How the results depend on the processing

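No paired analysis was possible because barcodes of the 8 samples, all of 1 group, cannot be told apart, and for the same reason no sample could be left out. Of 284 values under alternatives, 232 stayed within the main interval (counts within 1.5-fold), 52 moved and 0 reversed. The lowest log2 ratio of any member under an alternative was 2.71. With a Reln limit of 10 UMIs per 10000, which moves Zic-positive barcodes into the rest, the log2 ratios were 2.71 (Zic1), 4.58 (Zic2), 3.08 (Zic4) and 4.71 (Zic5). With the CR-like cluster in place of Reln-high barcodes they were 4.95 (Zic2), 3.12 (Zic4) and 5.07 (Zic5). Without barcodes above 25000 UMIs Zic1 was at 3.23, with a detection of 62.1%. Thinning to 15000 UMIs gave detection in 68.8% (Zic1), 44.4% (Zic2) and 47.7% (Zic5), with 12.2% of barcodes holding none of the 4 genes. Without thinning detection was 79.0, 59.1, 31.4 and 60.6% for Zic1, Zic2, Zic4 and Zic5, 7.20% held none of them and Zic4 by Zic1 was 30.7 points. The count of origin gene pairs was 33 with a Reln limit of 3. The CR-like cluster alone, an alternative added after seeing the data, gave 14 of them and 2 Zic pairs above 0. The differences for Zic4, Cxcr4 and Calb2 by Zic1 had intervals above 0 in all 11 alternatives, those for Wnt5a and Zic2 by Zic1 in 8, Zic5 by Zic1 in 6, Zic5 by Zic4 in 4, Zic5 by Zic2 in 3 and Zic4 by Zic2 in 0. Several of the 11 reuse the first draw, so this tally leans on that draw. Over the 100 draws Wnt5a by Zic1 lay above 0 in 40 and Zic5 by Zic2 in 55. Another random draw gave Cxcr4 by Zic1 at 10.1 points (0.892 to 19.1) and Wnt5a at 7.56 points (-0.260 to 14.9), and thinning to 15000 UMIs gave Wnt5a at 7.87 points (-1.94 to 16.6). Origin genes above 0 for Zic1 were then 5 of 17 and 6 of 16. The draws differ by the thinning alone. In the cluster with the most Reln, 12 K-means clusters gave 44.2 CPM (Zic2) and 46.6 CPM (Zic5), and Leiden clusters 146.1 CPM (Zic1) and 33.3 CPM (Zic4). The other causes were not tested. Depth limits detection, which rose for every member without thinning.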

Other observations

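Genes within 100 kb of a Zic gene were read in the same barcodes. Pcca, a subunit of propionyl-CoA carboxylase, starts 58889 bases from the start of Zic2 and was at 55.3 CPM in Reln-high and 10.5 CPM in the other barcodes, a log2 ratio of 2.39 (2.22 to 2.57) and rank 206 of 11288 genes. Gm10837, annotated 15151 bases from the Zic2 start, was at 4.12 and 0.353 CPM, from 50 and 15 UMIs. On the other side, Gm5089 had 0 UMIs in both sets. Around Zic1 and Zic4, Gm28652 and Gm29478 had 1 UMI each in all.

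Finer clusters split the CR-like barcodes. With 12 K-means clusters, a cluster of 114 barcodes had Zic1 at 171.5, Zic2 at 84.5 and Zic5 at 77.7 CPM, against 117.7, 44.2 and 46.6 CPM in the 251 barcodes with the most Reln. Their median depths were 16187 and 25391 UMIs, and the part of depth in this was not tested. With 18 Leiden clusters the corresponding values were 176.3, 81.7 and 81.7 CPM in 91 barcodes and 146.1, 50.7 and 55.6 CPM in 188.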
